A study of Mus musculus with 24 samples.

Results

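The genes of amino acid and cystine transport described here are *Slc7a11*, *Slc7a5*, *Slc3a2*, *Slc7a1*, *Slc7a3*, *Slc1a4*, *Slc1a5*, *Slc38a2* and *Slc6a9*. They were taken by gene symbol from the 49315 genes of a table of read counts, and all 9 passed the filter on low counts that kept 16070 genes. RNA was sequenced from MS03 cells, 1 immortalized Schwann cell line from Nf2 flox/flox mice in which Cre had deleted *Nf2*, so that every group, the DMSO controls included, was Nf2-/-. Cells in serum-containing medium were given DMSO or 1 of 7 compounds directed at focal adhesion kinase (FAK) for 24 hours, with 3 biological replicates in each of the 8 groups. The kinase inhibitors were defactinib, VS-4718, GSK2256098 and IN10018, each at 1 µM. The others were PROTACs, which join a FAK-binding inhibitor to a ligand for a ubiquitin ligase: PROTAC FAK degrader 1 at 1 µM, GSK215 at 0.1 µM and BSJ-04-0146 at 0.1 µM. The genes were picked with their levels in these libraries already known, so their levels, differences, intervals and calls in a model of all genes are given as a description. They are no independent evidence of a direction.

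Amino acids cross the plasma membrane through carriers that differ in what they take and in what they exchange for it. *Slc7a11* encodes the light chain xCT, which brings in cystine in exchange for glutamate, and cystine supplies the cysteine of glutathione. *Slc3a2* encodes the heavy chain (4F2hc, CD98) that holds xCT, the large neutral amino acid carrier LAT1 (*Slc7a5*) and related light chains at the cell surface. *Slc7a1* and *Slc7a3* encode the cationic carriers CAT1 and CAT3, which take arginine and lysine. *Slc1a4* and *Slc1a5* encode the neutral amino acid exchangers ASCT1 and ASCT2, *Slc38a2* the sodium-coupled carrier SNAT2, and *Slc6a9* the glycine carrier GlyT1. Several of these genes are known targets of the transcription factor ATF4, which acts in amino acid shortage and endoplasmic reticulum stress, and *Slc7a11* is also a known target of NRF2, which acts in oxidative stress.

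Promoter sequences are shown because the composite site of ATF4 and C/EBP factors, here the letters TGATGCAA on either strand, lies at the start of the 2 genes below. RefSeq windows on GRCm38.p6, 250 bases before to 50 bases after each start, were matched for 6 of the 9 genes (9 windows). In the set of windows used, none was matched for *Slc7a5*, *Slc7a3* and *Slc1a5*. TGATGCAA was found in *Slc7a11* and *Slc1a4*, and in 294 of all 32851 windows (0.895%). The *Slc7a11* window held it in both orientations, from 66 to 59 and from 47 to 40 bases before the start, and only 2 of all windows held it more than once. The core of the antioxidant response element, TGACNNNGC on either strand, was in windows of *Slc6a9*, *Slc7a1* and *Slc38a2* and in 12.4% of all windows. Both sets of letters were searched with these promoters in view, and a match is a description and not a measured site. The sequences are given on the strand of the gene, with the TGATGCAA letters or their reverse complement in capitals. They lie at chr3:50443653-50443679 and chr11:20332700-20332727, both on the minus strand.
Slc7a11: TGATGCAAacctggagaatTTGCATCA
Slc1a4: gcctcctgcgTTGCATCAtctccagcct

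Total counts per library ranged from 14472462 to 27449516, and the GSK215 (14472462 to 19331704) and BSJ-04-0146 (16112245 to 17794597) libraries were, as groups, the shallowest. Of the Schwann cell markers, 8 of 9 were tested. Their summed level was 54.2 to 57.9 CPM (counts divided by library size, on the usual CPM scale) in DMSO, 52.0 to 57.8 with PROTAC FAK degrader 1, 57.4 to 59.7 with IN10018, 76.3 to 80.3 with GSK2256098, 77.1 to 85.4 with defactinib, 116 to 130 with VS-4718, 221 to 245 with BSJ-04-0146 and 247 to 260 with GSK215. *Sox10* was at 11.4 to 110 CPM, while *S100b* had at most 18 counts and *Gap43* at most 9 in any library. The 5 macrophage markers summed to at most 2.05 CPM, the 3 endothelial markers to at most 0.557 and the 4 neuron markers to at most 0.621. The 4 fibroblast markers summed to 300 to 509 CPM, nearly all of it *Col1a1*, with *Lum* at 0 counts and *Dcn* at no more than 3. The marker sum was highest with GSK215, BSJ-04-0146 and VS-4718, where *Slc7a11* was lowest. It was near the DMSO range with PROTAC FAK degrader 1 and IN10018, where *Slc7a11* lay above DMSO, and alike with defactinib and GSK2256098, which lay on opposite sides of DMSO for *Slc7a11*. Its part in the transporter levels was not tested. In bulk RNA, fewer cells with a transcript and less of it per cell cannot be told apart.

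Levels below are CPM on TMM-scaled library sizes, as mean ± SD over 3 libraries, and differences are log2 fold changes ± SE from 1 model of all 24 libraries. Levels of different genes were compared only per kilobase of annotated exon (CPM per kb). In DMSO, *Slc7a5* was the most abundant per length at 124.0 ± 3.1 CPM per kb, followed by its heavy chain *Slc3a2* at 83.6 ± 0.51. *Slc38a2* (53.2 ± 0.569), *Slc1a5* (47.2 ± 0.913), *Slc7a1* (30.3 ± 0.348), *Slc1a4* (18.7 ± 0.639) and *Slc6a9* (8.19 ± 0.397) came next. *Slc7a11* was far lower at 2.17 ± 0.0654 CPM per kb and *Slc7a3* was lowest at 0.399 ± 0.139. The length is that of all annotated exons together, 13.92 kb for *Slc7a11*, so a gene whose cells use shorter transcripts is understated.

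*Slc7a11* (ENSMUSG00000027737, GRCm38 chr3:49892526-50443614, minus strand), the cystine carrier, had the widest range of the 9 genes, 12.6-fold between its highest and lowest group means. It stood at 31.3, 29.8 and 29.7 CPM in the DMSO libraries. With PROTAC FAK degrader 1 it was at 56.2, 57.2 and 56.5 CPM, 187% of the DMSO mean and a log2 fold change of 0.91 ± 0.051. With defactinib it was at 39.8, 40.4 and 39.7 CPM, a log2 fold change of 0.40 ± 0.052. These libraries lay above every DMSO library. So did those of IN10018, at 34.9, 36.9 and 37.6 CPM (0.27 ± 0.053 on the log2 scale). The 4 remaining compounds lay below every DMSO library. GSK2256098 gave 14.6, 12.8 and 14.9 CPM, 46.7% of the DMSO mean (-1.10 ± 0.06). VS-4718 gave 4.95, 5.24 and 5.39 CPM, 17.2% of DMSO (-2.54 ± 0.071). *Slc7a11* was thus among the most reduced transcripts with VS-4718, 35th from the lowest of the 16070 genes. GSK215 gave 4.73, 4.81 and 4.00 CPM (-2.75 ± 0.08, 32nd from the lowest), and BSJ-04-0146 gave 4.48, 5.26 and 5.49 CPM (-2.57 ± 0.078, 33rd). From the highest, the order was PROTAC FAK degrader 1, defactinib, IN10018, DMSO, GSK2256098, VS-4718, BSJ-04-0146 and GSK215. The libraries of neighbouring groups in that order did not overlap, except those of VS-4718 with BSJ-04-0146 and of BSJ-04-0146 with GSK215, while every VS-4718 library lay above every GSK215 library. Counts behind these levels were 72 to 1223 per library. On the log2(CPM + 4) scale, which draws low levels toward 0 change, the values were -1.90 with VS-4718, -2.01 with GSK215 and -1.92 with BSJ-04-0146.

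**Figure D1:**
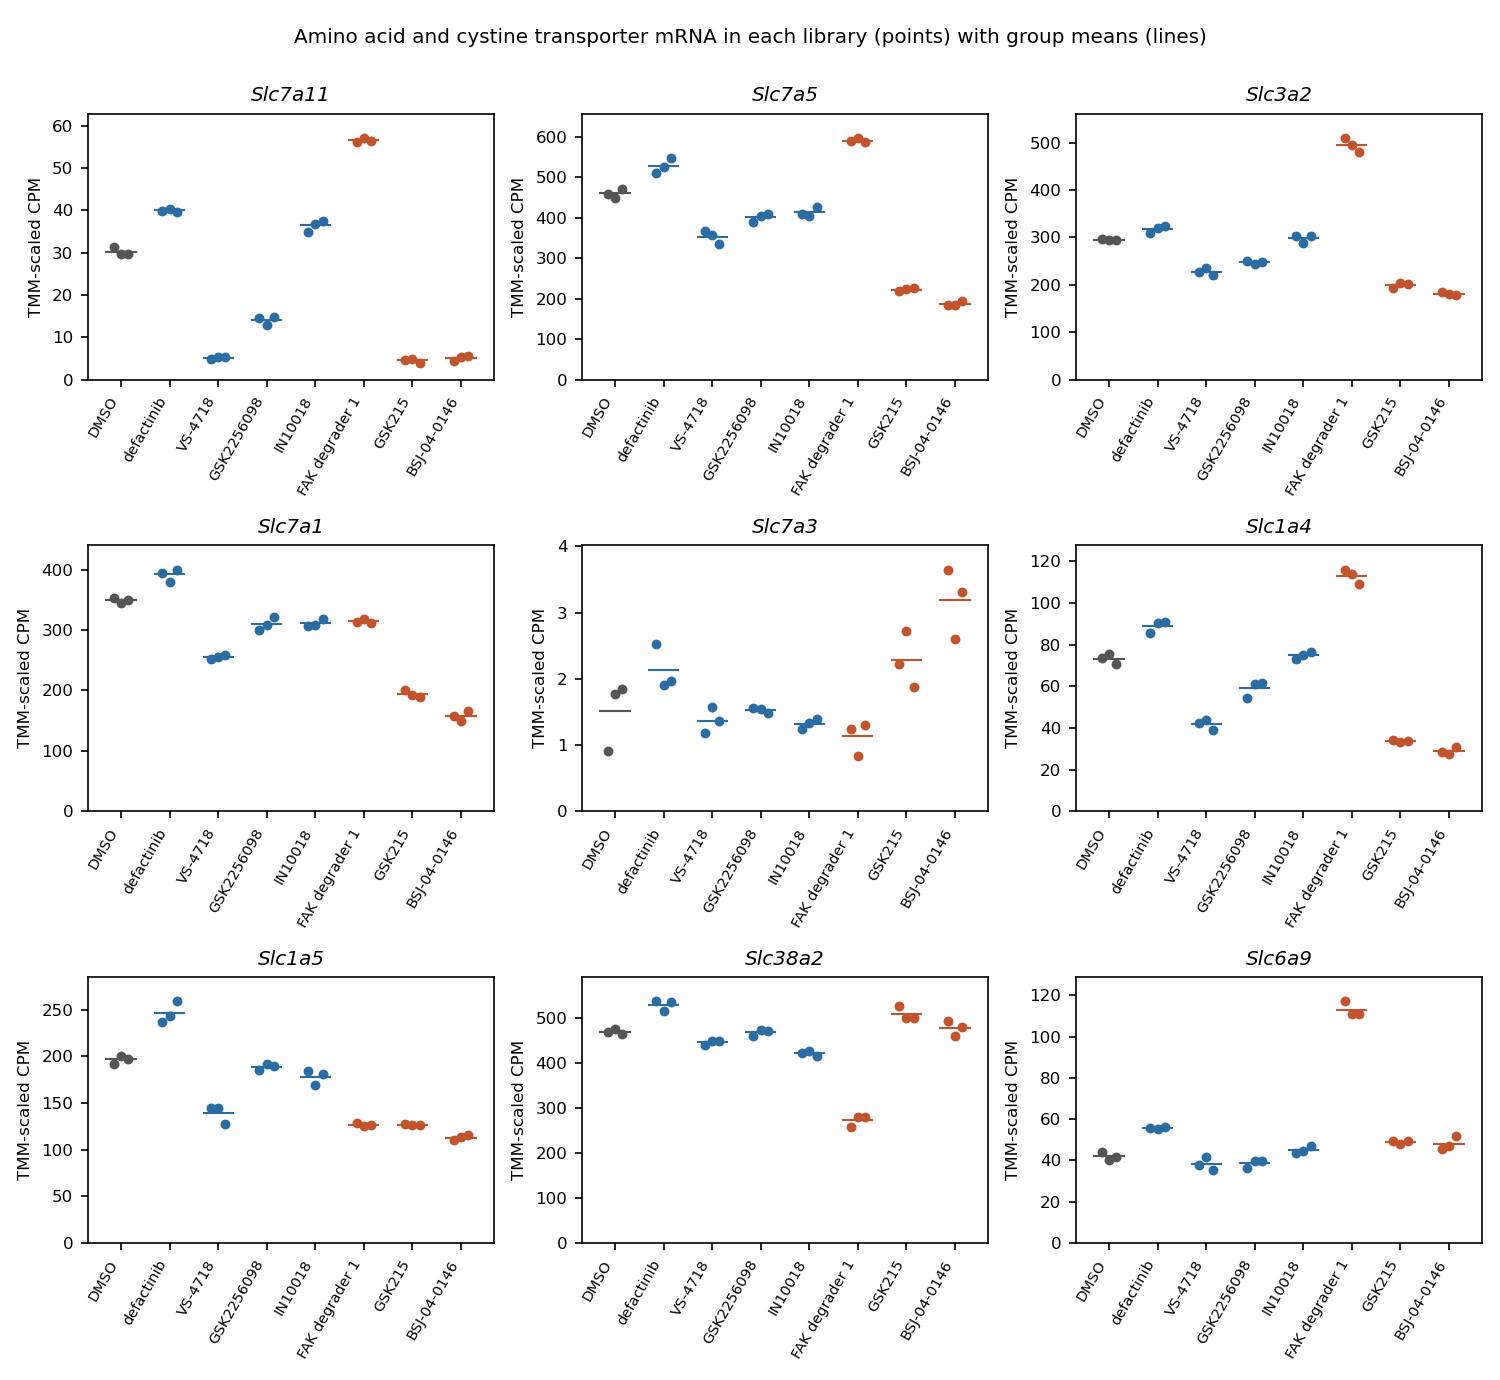
TMM-scaled CPM of each transporter gene on a linear axis from 0, with 1 point per library and a line at the mean of the 3 libraries of each group; DMSO is grey, kinase inhibitors blue and PROTACs orange (PROTAC FAK degrader 1 is marked FAK degrader 1). *Slc7a11* fell into a high set (DMSO, defactinib, IN10018 and PROTAC FAK degrader 1, from 29.7 CPM up) and a low set (at most 14.9 CPM), while *Slc6a9* stood apart with PROTAC FAK degrader 1 alone.

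*Slc3a2* (ENSMUSG00000010095, chr19:8706882-8723369, minus strand), the shared heavy chain, followed the same order of groups, apart from the lowest 2, with a smaller range of 2.73-fold. In DMSO it was at 297, 295 and 294 CPM, and with PROTAC FAK degrader 1 at 510, 494 and 479 CPM, a log2 fold change of 0.74 ± 0.031. Defactinib libraries, at 310, 320 and 323 CPM, lay just above DMSO (0.11 ± 0.031). IN10018 libraries, at 303, 289 and 302 CPM, overlapped the DMSO range. The level was lower with GSK2256098, at 250, 243 and 247 CPM (-0.26 ± 0.031), and with VS-4718, at 226, 235 and 220 CPM (-0.38 ± 0.031). GSK215 gave 193, 204 and 201 CPM (-0.56 ± 0.032) and BSJ-04-0146 184, 180 and 179 CPM (-0.71 ± 0.032). Thus the heavy chain mRNA stayed at 61.3% of its DMSO mean in the group where it was lowest, against 14.9% for *Slc7a11*.

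*Slc7a5* (ENSMUSG00000040010, chr8:121881150-121907694, minus strand), the light chain of LAT1, was at 459, 448 and 471 CPM in DMSO. It was again highest with PROTAC FAK degrader 1, at 588, 597 and 586 CPM (0.36 ± 0.033), then with defactinib, at 509, 526 and 547 CPM (0.20 ± 0.033). These were the only groups above DMSO. IN10018 gave 408, 405 and 426 CPM (-0.15 ± 0.033), GSK2256098 390, 405 and 408 (-0.20 ± 0.033) and VS-4718 367, 358 and 335 (-0.38 ± 0.033). The lowest levels were with GSK215, 218, 223 and 225 CPM (-1.05 ± 0.034), and BSJ-04-0146, 183, 184 and 193 CPM (-1.30 ± 0.035). Only IN10018 and GSK2256098, next to each other in the order, had overlapping libraries. *Slc7a11* and *Slc7a5* differed with IN10018, where the cystine carrier lay above DMSO and the LAT1 light chain below.

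The cationic carrier *Slc7a1* (ENSMUSG00000041313, chr5:148327410-148399904, minus strand) was above DMSO (345 to 353 CPM) with defactinib alone, at 380 to 400 CPM (0.17 ± 0.032). PROTAC FAK degrader 1, which gave the highest levels of *Slc7a11*, *Slc7a5* and *Slc3a2*, left *Slc7a1* below DMSO at 312 to 318 CPM (-0.15 ± 0.032), in the range of IN10018 (306 to 318) and GSK2256098 (300 to 321). VS-4718 gave 252 to 258 CPM (-0.45 ± 0.032), GSK215 189 to 200 (-0.85 ± 0.033) and BSJ-04-0146 150 to 166 (-1.15 ± 0.034). *Slc7a3* (ENSMUSG00000031297, chrX:101079210-101086020, minus strand) was close to the limit of detection, with 16 to 62 counts per library. Its highest mean was with BSJ-04-0146, at 3.65, 2.60 and 3.31 CPM (1.06 ± 0.21, or 0.39 on the log2(CPM + 4) scale), against 0.905, 1.77 and 1.85 CPM in DMSO. GSK215 gave 2.23, 2.72 and 1.88 CPM (0.57 ± 0.22), which fell to 0.33 without DMSO replicate 1 and to 0.42 without GSK215 replicate 2. So the CAT3 transcript was highest where the CAT1 transcript was lowest, and all but 1 of the neighbouring groups in its order overlapped.

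*Slc1a4* (ENSMUSG00000020142, chr11:20302180-20332713, minus strand), the exchanger ASCT1 for serine and other small neutral amino acids, had the second widest range, 3.91-fold. It was at 73.4, 75.7 and 70.7 CPM in DMSO and at 116, 114 and 109 CPM with PROTAC FAK degrader 1 (0.62 ± 0.043). Defactinib gave 85.4 to 90.8 CPM (0.28 ± 0.043), and the IN10018 libraries, 73.2 to 76.6 CPM, overlapped DMSO. Below DMSO were GSK2256098 at 54.6 to 61.6 CPM (-0.31 ± 0.045), VS-4718 at 38.9 to 43.6 (-0.82 ± 0.047), GSK215 at 33.5 to 34.1 (-1.12 ± 0.051) and BSJ-04-0146 at 27.7 to 30.7 (-1.34 ± 0.052). This is the group order of *Slc3a2*, and that of *Slc7a11* apart from the lowest 2 groups. TGATGCAA, printed above for *Slc7a11* and *Slc1a4*, was not in the 1 window of *Slc3a2*. Only these exact letters in that window were searched, so a site elsewhere or with other letters would have been missed. *Slc1a5* (ENSMUSG00000001918, chr7:16781340-16798274, plus strand), the glutamine exchanger ASCT2, did not share the high level with PROTAC FAK degrader 1. It was at 192, 200 and 197 CPM in DMSO and at 129, 126 and 127 CPM with PROTAC FAK degrader 1, 64.9% of the DMSO mean (-0.62 ± 0.04). Only defactinib lay above DMSO, at 237 to 259 CPM (0.33 ± 0.038). VS-4718 gave 128 to 145 CPM (-0.50 ± 0.039), GSK215 127 to 128 (-0.63 ± 0.04) and BSJ-04-0146 110 to 116 (-0.79 ± 0.04). VS-4718 and PROTAC FAK degrader 1 overlapped, as did PROTAC FAK degrader 1 and GSK215.

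*Slc38a2* (ENSMUSG00000022462, chr15:96687392-96699730, minus strand), the sodium-coupled carrier SNAT2, was lowest with PROTAC FAK degrader 1, where *Slc7a11*, *Slc7a5*, *Slc3a2* and *Slc1a4* were highest, and highest with defactinib, as were *Slc7a1* and *Slc1a5*. It was at 470, 475 and 465 CPM in DMSO and at 259, 281 and 281 CPM with PROTAC FAK degrader 1, 58.3% of the DMSO mean (-0.78 ± 0.033). In the other groups its mean stayed between 89.7% of DMSO, with IN10018, and 113%, with defactinib. GSK215 gave 527, 500 and 499 CPM (0.12 ± 0.032) and BSJ-04-0146 493, 459 and 479 CPM (0.02 ± 0.032), so the compounds with the lowest *Slc7a11* left *Slc38a2* near its DMSO level. *Slc6a9* (ENSMUSG00000028542, chr4:117834506-117875198, plus strand), the glycine carrier, had the largest log2 fold change of the 9 genes with PROTAC FAK degrader 1, 1.42 ± 0.048. It was at 117, 111 and 111 CPM there against 44.3, 40.3 and 41.7 CPM in DMSO. Defactinib gave 55.6, 55.0 and 56.0 CPM (0.40 ± 0.05), and the remaining groups had means of 38.3 to 48.8 CPM. Among those, neighbours in the order from GSK215 through BSJ-04-0146 and IN10018 to DMSO overlapped, as did GSK2256098 and VS-4718, while DMSO and GSK2256098 did not. The VS-4718 libraries, at 37.7, 41.7 and 35.4 CPM, had the lowest mean but overlapped those of DMSO.

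Counted over the 9 genes at an adjusted p under 0.05, defactinib gave 8 higher and 0 lower than DMSO, where 11.4% of all genes tested were called higher and 11.0% lower. VS-4718 gave 0 higher and 7 lower (all genes 20.4% and 18.9%), and GSK2256098 gave 0 and 5 (all genes 6.36% and 6.09%). IN10018 gave 1 higher, *Slc7a11*, and 4 lower (all genes 6.44% and 6.85%). PROTAC FAK degrader 1 gave 5 higher and 3 lower (all genes 34.1% and 32.7%). GSK215 gave 3 higher and 6 lower (all genes 27.4% and 27.2%), and BSJ-04-0146 gave 2 and 6 (all genes 27.7% and 26.9%). All 7 comparisons share the 3 DMSO libraries, and since the genes were chosen on these levels nothing is read from the counts. The median log2 fold change of the 9 genes was 0.28 with defactinib, -0.38 with VS-4718, -0.17 with GSK2256098, -0.14 with IN10018, 0.36 with PROTAC FAK degrader 1, -0.63 with GSK215 and -0.79 with BSJ-04-0146, beside 0.00 to 0.02 over all genes. Several small calls rested on single libraries. *Slc3a2* with defactinib was not called without defactinib replicate 3 (0.09), *Slc1a5* with IN10018 without DMSO replicate 2 (-0.13) or IN10018 replicate 2 (-0.11), and *Slc6a9* with VS-4718 without DMSO replicate 1 (-0.11), VS-4718 replicate 1 (-0.14) or VS-4718 replicate 3 (-0.10). *Slc38a2* with VS-4718 was gained without DMSO replicate 3 or VS-4718 replicate 3 (-0.09 each), and with all libraries in DESeq2 or in a fit of the 6 libraries alone (-0.08 each), and *Slc7a3* with PROTAC FAK degrader 1 without DMSO replicate 1 (-0.67). *Slc7a3* with GSK215 was lost without either library named for it above.

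**Figure D2:**
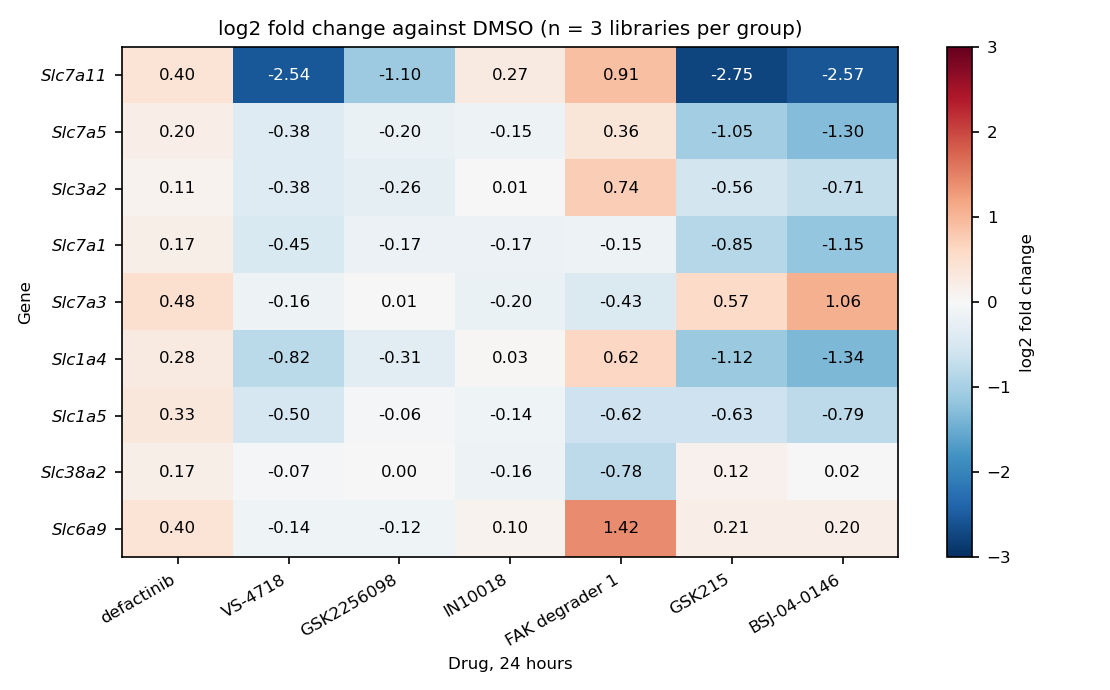
Log2 fold change against DMSO for the 9 transporter genes (rows) and 7 compounds (columns), with the value printed in each cell and colour from blue (lower) to red (higher). *Slc7a11* held the lowest values, from -2.75 to -2.54, with GSK215, BSJ-04-0146 and VS-4718, and *Slc6a9* the highest, 1.42, with PROTAC FAK degrader 1.

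In the orders, ranges and overlaps of groups given above, groups at 0.1 µM and 1 µM stand side by side as measured. Log2 differences between compounds were taken only at the same dose and time, in 11 pairs. These pairs too are among the levels on which the genes were chosen, so counts of calls are a description and nothing is read from them. Defactinib and VS-4718, both kinase inhibitors at 1 µM, lay on opposite sides of DMSO for most of these genes, and all 9 were lower with VS-4718 (all genes 16.0% lower), or 8 without defactinib replicate 1 or VS-4718 replicate 1, when *Slc7a3* was not called (-0.51 and -0.55). The log2 difference was -2.94 (95% interval -3.08 to -2.80) for *Slc7a11*, a 7.68-fold lower level (-2.26 on the log2(CPM + 4) scale). For the other 8 genes it ranged from -1.09 for *Slc1a4* to -0.25 for *Slc38a2*. GSK2256098 gave 8 of 9 lower than defactinib (all genes 5.59%), with *Slc7a11* at -1.50 (95% interval -1.62 to -1.39). IN10018 gave 9 of 9 lower (all genes 16.6%), yet *Slc7a11* differed by only -0.13 (95% interval -0.24 to -0.03), a call lost in DESeq2 and limma, with no filter on low counts (-0.12) and without any of 5 libraries (defactinib replicates 1, 2 and 3, IN10018 replicates 1 and 2), at -0.14 to -0.10. The *Slc3a2* difference of -0.09 was lost with no filter (-0.09) and without defactinib replicate 2 or 3 or IN10018 replicate 2 (-0.09 to -0.07), and that of -0.69 in *Slc7a3* without defactinib replicate 1 or IN10018 replicate 1 (-0.55 and -0.65). Among the other kinase inhibitors, *Slc7a11* was higher with GSK2256098 than with VS-4718 by 1.44 (95% interval 1.28 to 1.60) and higher with IN10018 than with GSK2256098 by 1.37 (95% interval 1.25 to 1.49).

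PROTAC FAK degrader 1 at 1 µM was set beside each kinase inhibitor at that dose. Against defactinib, 5 genes were higher and 4 lower (all genes 34.9% and 34.0%). *Slc6a9* was higher by 1.02 (95% interval 0.93 to 1.12), *Slc3a2* by 0.64 (95% interval 0.58 to 0.70) and *Slc7a11* by 0.50 (95% interval 0.40 to 0.60), while *Slc1a5* was lower, at -0.95 (95% interval -1.03 to -0.87), and *Slc38a2* too, at -0.95 (95% interval -1.02 to -0.88). Against VS-4718, 6 were higher and 2 lower (all genes 34.6% and 34.3%), and *Slc7a11* was higher by 3.45 (95% interval 3.31 to 3.58), or 10.9-fold (2.72 on the log2(CPM + 4) scale). The lower *Slc1a5* of -0.13 was no longer called under library totals alone or without VS-4718 replicate 1 (-0.08 each). Against GSK2256098, 5 were higher and 2 lower (all genes 34.1% and 33.6%), with *Slc7a11* higher by 2.01 (95% interval 1.89 to 2.12). Against IN10018, 5 were higher and 2 lower (all genes 32.4% and 31.1%), with *Slc7a11* higher by 0.63 (95% interval 0.53 to 0.74). In both pairs the lower genes were *Slc1a5* and *Slc38a2*. GSK215 and BSJ-04-0146, PROTACs at 0.1 µM, differed little by comparison. BSJ-04-0146 had 0 higher and 6 lower (all genes 12.6% and 9.88%), all by small amounts, from -0.30 for *Slc7a1* to -0.09 for *Slc38a2*, a call lost without GSK215 replicate 1 or BSJ-04-0146 replicate 2 (-0.07 each). *Slc7a3* was called higher in limma on log2(CPM + 4) (0.19). The difference in *Slc7a11* was 0.18 (95% interval -0.06 to 0.42), which leaves room for a change of up to 0.42 in log2 units. PROTAC FAK degrader 1 was given at another dose than these. No log2 difference was therefore taken between its *Slc7a11* level of 56.6 ± 0.532 CPM and theirs of 4.51 ± 0.446 and 5.08 ± 0.532 CPM. The 12.6-fold range of *Slc7a11* given above spans these unlike doses.

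**Figure D3:**
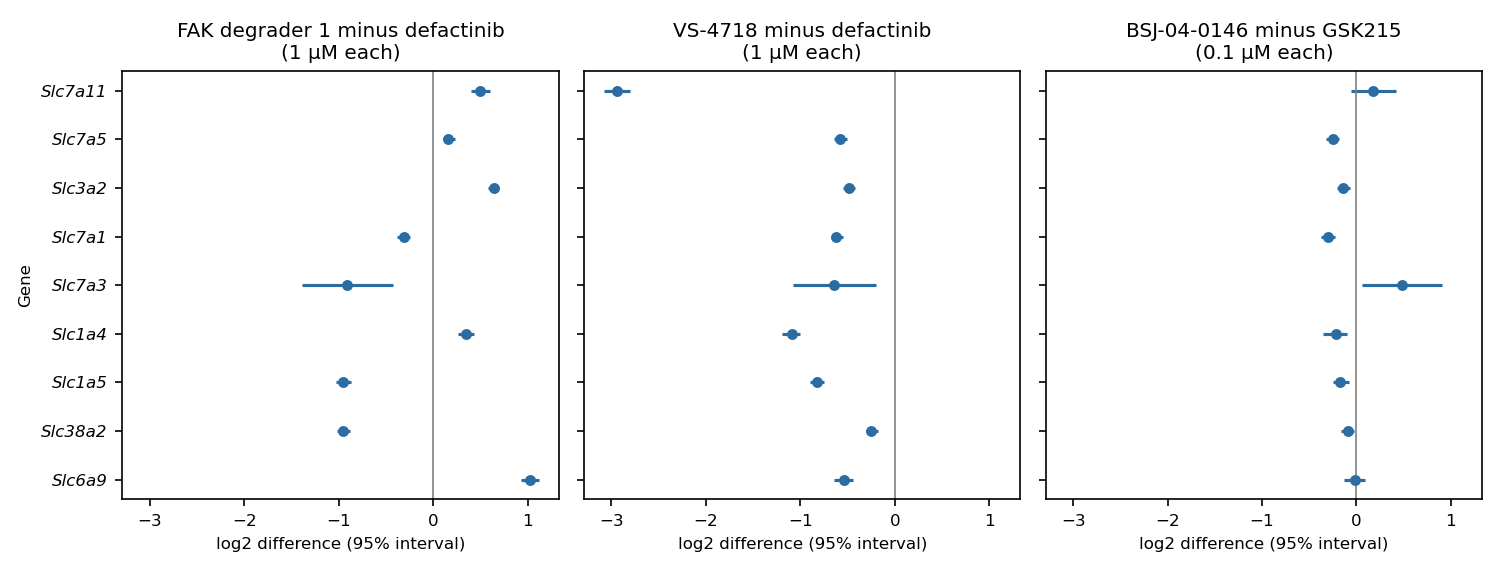
Log2 differences between compounds at the same dose, with 95% intervals, for 3 of the 11 pairs: PROTAC FAK degrader 1 minus defactinib, VS-4718 minus defactinib, and BSJ-04-0146 minus GSK215. All 9 points lay below 0 for VS-4718, while the points of BSJ-04-0146 lay within -0.30 to 0.48.

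Other genes of amino acid transport and cystine use were taken from lists by family, which were also drawn up with earlier results of these data known. Of 34 other plasma membrane amino acid transporters, 24 stayed below the filter, none of them exceeding 20 counts in a library. Of the 10 tested, PROTAC FAK degrader 1 raised 1 and lowered 7 (all genes 34.1% and 32.7%), GSK215 raised 6 and lowered 2 (all genes 27.4% and 27.2%), and BSJ-04-0146 raised 4 and lowered 3 (all genes 27.7% and 26.9%). Defactinib raised 3 and lowered 1 (all genes 11.4% and 11.0%), and VS-4718 raised 2 and lowered 1 (all genes 20.4% and 18.9%). GSK2256098 raised 1 and lowered 0 (all genes 6.36% and 6.09%), and IN10018 raised 0 and lowered 2 (all genes 6.44% and 6.85%). The median log2 fold change was -0.76 with PROTAC FAK degrader 1, 0.41 with GSK215 and 0.19 with BSJ-04-0146. These counts and medians include *Slc3a1*, *Slc7a7*, *Slc7a8*, *Slc38a3*, *Slc38a4* and *Slc43a1*, which averaged only 0.365 to 1.59 CPM over all libraries. The only rise with PROTAC FAK degrader 1 (*Slc7a7*) and the only falls with defactinib and VS-4718 (*Slc38a4*) were among them. *Slc6a6*, the taurine carrier, fell from 823 ± 3.8 CPM in DMSO to 379 ± 3.73 CPM with PROTAC FAK degrader 1 (log2 fold change -1.12 ± 0.03, adjusted p = 7.64e-29, edgeR quasi-likelihood test). Its other calls were small, from -0.21 with IN10018 to 0.10 with GSK215. *Slc7a6*, another light chain that pairs with *Slc3a2*, fell in the same cells by 0.72 on the log2 scale (adjusted p = 7.78e-21) and also fell with IN10018 (-0.23 ± 0.033) and BSJ-04-0146 (-0.29 ± 0.034). It rose by a like amount with defactinib (0.21 ± 0.032, adjusted p = 4.42e-06) and VS-4718 (0.23 ± 0.032, adjusted p = 2.88e-07). *Slc43a2*, a carrier of large neutral amino acids that needs no heavy chain, rose from 19.6 ± 1.15 CPM to 42.9 ± 3.16 with GSK215 (1.12 ± 0.068, adjusted p = 2.24e-17) and to 37.5 ± 0.912 with BSJ-04-0146 (0.94 ± 0.069, adjusted p = 8.72e-15), where *Slc7a5* was lowest. It also rose with VS-4718 (0.38 ± 0.069, adjusted p = 2.23e-05). Its calls with defactinib (0.24 ± 0.071), GSK2256098 (0.26 ± 0.071) and PROTAC FAK degrader 1 (-0.20 ± 0.076) did not hold without single libraries (DMSO replicate 1 or defactinib replicate 1 for the first, DMSO replicate 1 or GSK2256098 replicate 1 or 2 for the second, DMSO replicate 3 or PROTAC FAK degrader 1 replicate 1 for the third), at 0.20, 0.21 to 0.23 and -0.16 to -0.15. *Slc36a4*, a proton-independent amino acid carrier, rose with GSK215 (0.26 ± 0.053, adjusted p = 6.48e-05) and fell by as much with PROTAC FAK degrader 1 (-0.27 ± 0.056, adjusted p = 5.29e-05). These p-values set a difference against the spread between libraries of the same group, estimated in 1 model of all 24 libraries. The labels call the 3 libraries of a group biological replicates without saying how the cultures were separated.

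The carriers of the lysosome, which let amino acids out after protein breakdown, moved in the opposite direction to *Slc7a11* with GSK215 and BSJ-04-0146. Of 6 genes, 5 were tested, and all 5 rose with GSK215 (all genes 27.4%) and with BSJ-04-0146 (all genes 27.7%), while PROTAC FAK degrader 1 raised 3 and lowered 1 (all genes 34.1% and 32.7%). *Ctns*, cystinosin, which carries cystine out of the lysosome, rose from 14.5 ± 0.802 CPM to 34.5 ± 0.935 with GSK215 (1.25 ± 0.065, adjusted p = 2.59e-19) and to 38.9 ± 1.57 with BSJ-04-0146 (1.42 ± 0.064, adjusted p = 2.54e-21). It also rose with PROTAC FAK degrader 1 (0.59 ± 0.068, adjusted p = 6.56e-10), where *Slc7a11* was highest. *Pqlc2* (also *Slc66a1*), the cationic amino acid carrier of the lysosome, rose with GSK215 (0.85 ± 0.1) and BSJ-04-0146 (0.93 ± 0.1). *Slc38a7*, a lysosomal glutamine carrier, rose most with PROTAC FAK degrader 1, from 29.7 ± 0.24 to 71.9 ± 3.46 CPM (1.28 ± 0.057, adjusted p = 4.77e-22), and fell with VS-4718 (-0.32 ± 0.063, adjusted p = 7.74e-05). *Slc36a1* fell with PROTAC FAK degrader 1 (-0.58 ± 0.061) and rose with GSK215 (0.42 ± 0.055) and BSJ-04-0146 (0.50 ± 0.055). Among the kinase inhibitors, defactinib raised 3 (all genes 11.4%), VS-4718 raised 2 and lowered 1 (all genes 20.4% and 18.9%), GSK2256098 lowered 1 (all genes 6.09%), and IN10018 moved 0 (1 at an unadjusted p under 0.05 in edgeR, and 0 past the threshold in DESeq2 and limma). The rise of *Ctns* by 0.23 with defactinib was lost without DMSO replicate 1 (0.18) or defactinib replicate 1 (0.16), and that of 0.23 with VS-4718 without DMSO replicate 1 or VS-4718 replicate 1 (0.18 each). The fall of *Slc38a7* with GSK2256098 (-0.20) was lost without any 1 of 5 libraries, all but GSK2256098 replicate 3 (-0.22 to -0.15), its rise with defactinib (0.17) in limma (0.15) and without any 1 of 5, all but defactinib replicate 1 (0.13 to 0.17), and the rise of *Slc36a1* with defactinib (0.21) without defactinib replicate 3 (0.17) and with VS-4718 (0.17) without DMSO replicate 1 (0.14) or VS-4718 replicate 3 (0.13). Each leave-out thus left 1 or 2 calls with defactinib.

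**Figure D4:**
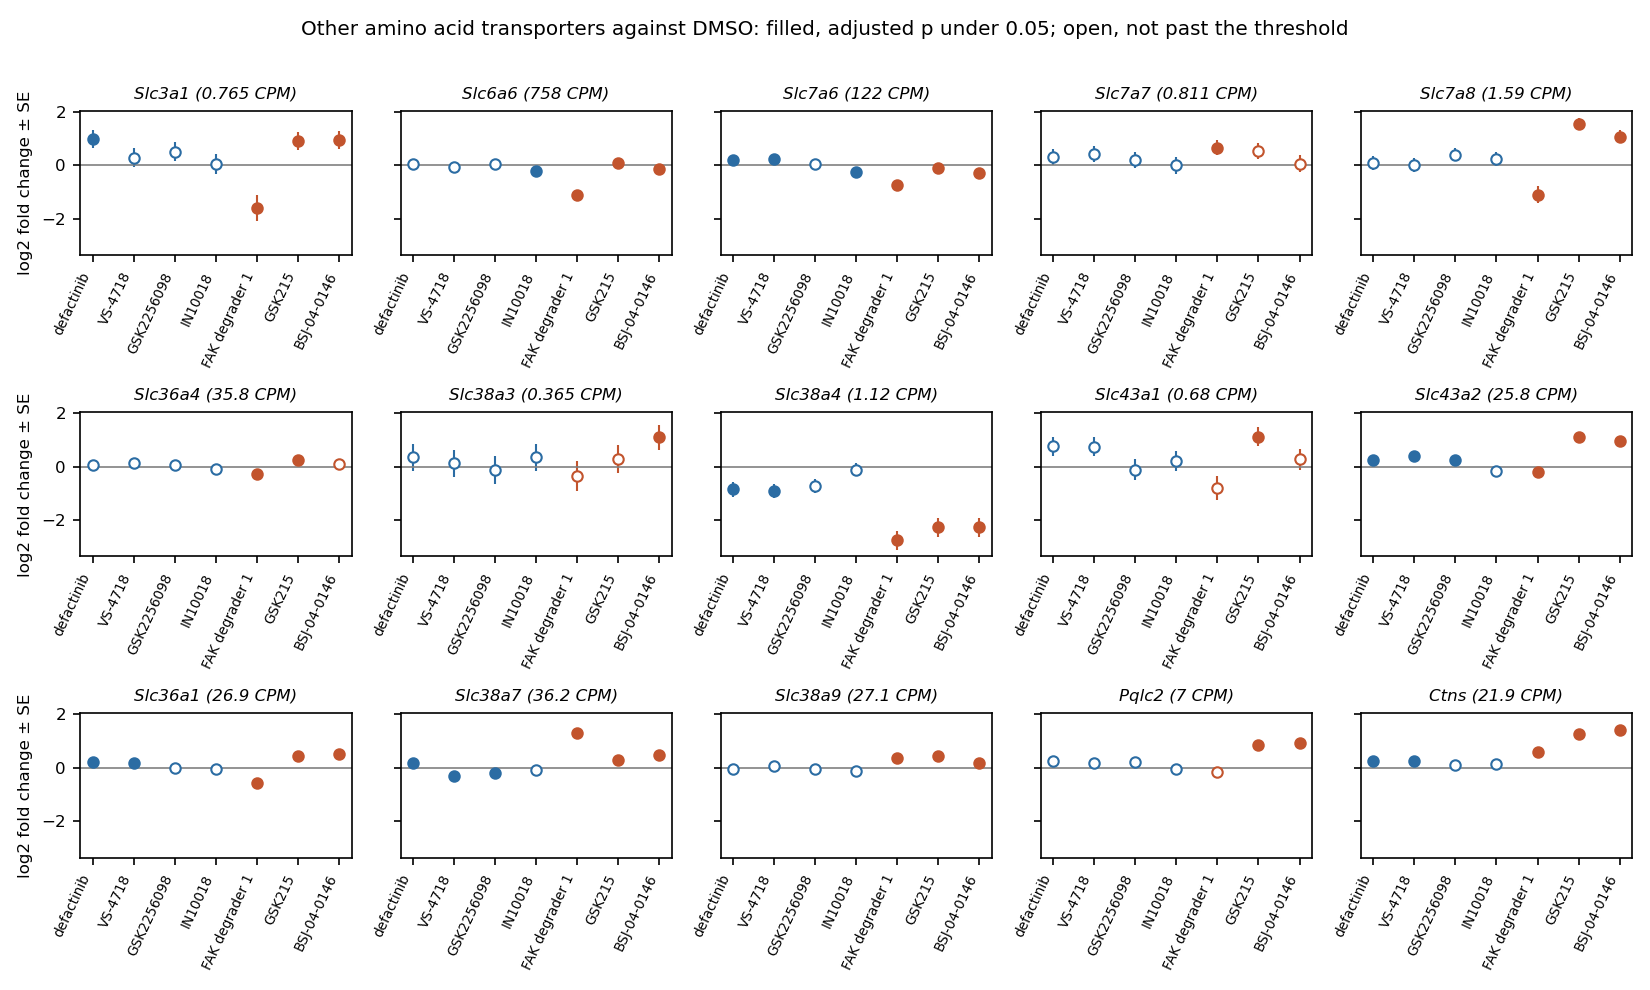
Log2 fold change ± SE against DMSO for the 10 other plasma membrane transporters and 5 lysosomal carriers that were tested, with kinase inhibitors in blue and PROTACs in orange, filled where the adjusted p was under 0.05; the mean CPM over all libraries stands beside each gene. The 5 lysosomal carriers in the lowest row were all above 0 with GSK215 and BSJ-04-0146, and *Slc6a6* lay at -1.12 with PROTAC FAK degrader 1.

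Of the genes that make and use cysteine and glutathione, 20 of 22 were tested. PROTAC FAK degrader 1 raised 11 and lowered 4 (all genes 34.1% and 32.7%), IN10018 raised 6 and lowered 1 (all genes 6.44% and 6.85%), and GSK215 raised 4 and lowered 8 (all genes 27.4% and 27.2%). BSJ-04-0146 raised 6 and lowered 5 (all genes 27.7% and 26.9%), defactinib raised 2 and lowered 2 (all genes 11.4% and 11.0%), and VS-4718 raised 3 and lowered 3 (all genes 20.4% and 18.9%), which as shares of the 20 genes lie near those of all genes. GSK2256098 raised 1 and lowered 3 (all genes 6.36% and 6.09%). The 7 calls with IN10018 became 3 to 5 when any 1 of the 6 libraries compared was left out. *Chac1*, which breaks down glutathione, fell from 23.4 ± 1.58 CPM to 3.30 ± 0.447 with VS-4718 (-2.83 ± 0.094, adjusted p = 8.14e-25), 2.75 ± 0.392 with GSK215 (-3.07 ± 0.11) and 3.12 ± 0.496 with BSJ-04-0146 (-2.90 ± 0.1), the compounds with the lowest *Slc7a11* (-1.91, -2.02 and -1.95 on the log2(CPM + 4) scale). It rose to 75.2 ± 2.41 CPM with PROTAC FAK degrader 1 (1.68 ± 0.06, adjusted p = 4.59e-25) and also rose with IN10018 (0.66 ± 0.064), while GSK2256098 lowered it (-1.02 ± 0.075). With defactinib it fell (-0.38 ± 0.069, adjusted p = 8.39e-05), whereas *Slc7a11* was above DMSO. *Cth*, which makes cysteine from cystathionine, went from 29.9 ± 1.68 CPM to 103 ± 2.06 with PROTAC FAK degrader 1 (1.79 ± 0.056, adjusted p = 6.8e-27) and to 8.05 ± 0.498 with BSJ-04-0146 (-1.89 ± 0.084, adjusted p = 1.81e-21). It also fell with GSK215 (-1.71 ± 0.081), VS-4718 (-1.11 ± 0.07) and GSK2256098 (-0.68 ± 0.067). *Csad*, of taurine synthesis, rose most with GSK215 (1.35 ± 0.061) and BSJ-04-0146 (1.31 ± 0.061), and also with VS-4718 (0.74 ± 0.062), PROTAC FAK degrader 1 (0.62 ± 0.064) and defactinib (0.40 ± 0.064). *Mpst*, which uses a cysteine product, rose with PROTAC FAK degrader 1 from 19.1 ± 0.675 to 41.1 ± 0.673 CPM (1.11 ± 0.069, adjusted p = 2.14e-17) and by less with IN10018 (0.27 ± 0.073, lost without DMSO replicate 1 at 0.24 or IN10018 replicate 3 at 0.23). *Gsr*, glutathione reductase, fell with PROTAC FAK degrader 1 (-0.71 ± 0.043, adjusted p = 9.18e-18), as did *Ggct* (-0.58 ± 0.096). Both also fell with GSK215 (*Gsr* -0.25 ± 0.042, *Ggct* -0.45 ± 0.096) and BSJ-04-0146 (*Gsr* -0.16 ± 0.042, *Ggct* -0.44 ± 0.097). *Gpx4*, which reduces lipid peroxides with glutathione, rose most with PROTAC FAK degrader 1 (0.59 ± 0.04, adjusted p = 3.92e-16), where *Slc7a11* was highest, and also with BSJ-04-0146 (0.51 ± 0.041), VS-4718 (0.32 ± 0.04), GSK215 (0.22 ± 0.041) and IN10018 (0.19 ± 0.041). *Gclc*, the catalytic subunit of the first step of glutathione synthesis, was named after its values were seen, did not pass the test with any compound and had log2 fold changes of -0.09 to 0.08. *Gss*, of the last step, was -0.15 ± 0.047 with defactinib, a call lost without DMSO replicate 1 or defactinib replicate 1 (-0.13 each), and fell with GSK215 (-0.21 ± 0.05).

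Of 8 regulators, *Atf4* passed the test with every compound. It was at 303 ± 6.63 CPM in DMSO, rose with PROTAC FAK degrader 1 (0.88 ± 0.031, adjusted p = 2.77e-25) and IN10018 (0.14 ± 0.031, adjusted p = 0.00242), and fell with GSK215 (-1.16 ± 0.033), BSJ-04-0146 (-1.09 ± 0.033), VS-4718 (-0.82 ± 0.032) and GSK2256098 (-0.41 ± 0.032). With defactinib it fell slightly (-0.10 ± 0.031, adjusted p = 0.0129), a call lost without DMSO replicate 1 (-0.09, adjusted p = 0.0703). With defactinib *Slc7a11* lay above DMSO, while *Atf4* did not. Only mRNA of the regulators was measured, not the activity of their proteins. A part of any regulator in the transporter levels was not tested. *Ddit3*, the stress factor CHOP, rose from 19.7 ± 1.17 to 237 ± 3.26 CPM with PROTAC FAK degrader 1 (3.59 ± 0.054, adjusted p = 5.94e-37) and rose with IN10018 (0.58 ± 0.065), but fell with the other 5 compounds by 0.55 to 1.20 on the log2 scale. *Nfe2l2*, which encodes NRF2, rose with VS-4718 (0.38 ± 0.039, adjusted p = 2.71e-10) and BSJ-04-0146 (0.38 ± 0.041, adjusted p = 2.7e-10), where *Slc7a11* was low, and by less with PROTAC FAK degrader 1 (0.24 ± 0.041) and GSK215 (0.14 ± 0.041). *Bach1*, a repressor at NRF2 sites, rose with PROTAC FAK degrader 1 (0.46 ± 0.072) and BSJ-04-0146 (0.30 ± 0.074). *Eif2ak4*, the sensor kinase GCN2 of amino acid shortage, rose with PROTAC FAK degrader 1 (0.29 ± 0.037) and fell with GSK215 (-0.20 ± 0.039) and BSJ-04-0146 (-0.14 ± 0.039). *Eif2ak3*, the endoplasmic reticulum sensor PERK, rose with PROTAC FAK degrader 1 (0.21 ± 0.054) and GSK215 (0.17 ± 0.055), the latter lost without DMSO replicate 1 (0.12). *Keap1*, which holds NRF2 down, rose with PROTAC FAK degrader 1 (0.15 ± 0.046). It was -0.13 with defactinib (adjusted p = 0.044) and -0.11 with GSK215 (adjusted p = 0.0423), calls lost without any 1 DMSO library and without defactinib replicate 1 (-0.08) or 2 (-0.14) and GSK215 replicate 1 (-0.06). *Cebpb* rose with PROTAC FAK degrader 1 (0.93 ± 0.16, adjusted p = 2.48e-06). Its calls with defactinib (0.54) and GSK215 (0.52) were lost in DESeq2 and without DMSO replicate 1 (0.37 and 0.35), and with GSK215 also without GSK215 replicate 2 (0.44).

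Across the 8 group means of log2 CPM, *Slc7a11* went most closely with *Slc1a4* among the 9 genes (Pearson r = 0.971), then with *Slc3a2* (0.906) and *Slc7a5* (0.882). *Slc7a5* went with *Slc1a4* (0.96) and *Slc7a1* (0.947). *Slc38a2* ran opposite to *Slc6a9* (-0.795) and *Slc3a2* (-0.744), and went with *Slc7a3* (0.626). Each value has 8 points from the same 24 libraries, in which PROTAC groups were the shallowest, and is given as a description. Among 10271 other genes with at least 5 CPM, the gene closest to *Slc7a11* was *Stc2* (0.989). For *Slc3a2* it was *Cth* (0.995), for *Slc7a5* *Map1b* (0.99), for *Slc7a1* *Dctd* (0.991) and for *Slc7a3* *Galc* (0.975). For *Slc1a4* it was *Iars* (0.99) and for *Slc1a5* *Qars* (0.983), both tRNA synthetase genes. Only the top gene was taken for each transporter, and other genes with nearly the same value were not counted. *Nova1* was closest to *Slc38a2* (0.998) and *3110040N11Rik* to *Slc6a9* (0.984).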

How the data were processed

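RNA of 24 MS03 samples, 8 groups of 3, was sequenced after poly(A) selection. The authors deposited raw read counts per gene, and the submitters' processing notes name Trimmomatic 0.36, STAR 2.5.2b, featureCounts (Subread 1.5.2) and GRCm38; the strand setting and the handling of reads shared by overlapping genes are not given in the sources used here. Columns were assigned by library number in the labels. Gene positions and exon lengths are from GENCODE M21 and promoters from RefSeq GRCm38.p6. Genes kept by filterByExpr (16070) were fitted in edgeR 4.0.16 (R 4.3.3) with TMM and the quasi-likelihood test, with all groups in 1 model (16 residual degrees of freedom), and p-values were adjusted by Benjamini-Hochberg over all genes tested (threshold 0.05). The script was tested on simulated counts. The study's methods name log2(CPM + 4), with statistics in GraphPad Prism, and no count model. Limma 3.58.1 on that scale and DESeq2 1.42.0 were therefore alternatives, with library totals alone, no filter, a replicate block, only the 6 libraries of a comparison, and each replicate left out. Depths of 14472462 to 27449516 counts per library gave SEs of 0.05 to 0.08 log2 units for *Slc7a11* and about 0.2 for *Slc7a3* against DMSO.

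The transporters and gene lists were chosen with earlier results of these data known. Named were the 9 genes, all regulators, and from each other list up to 2 rises and 2 falls per compound against DMSO, past the threshold, at 5 CPM or more, with no overlap between groups (each such gene is named, but not each of its comparisons), and per transporter the gene of highest Pearson correlation. Same-numbered replicates did not deviate together (correlation -0.253 to 0.197), so the numbers were not used as pairs. No 2 replicates of a group were alike within sampling noise. *Nf2* had 2360 to 5066 counts, which cannot show a deletion of exons.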

Additional observations from a re-analysis of the deposited data

How the results depend on the processing

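No log2 fold change of the 9 transporters that passed the threshold changed sign under any alternative run, while 6 values of at most 0.05 in size that did not pass it did, most widely *Slc7a3* with GSK2256098 (0.01, from -0.24 to 0.17). The number of them past the threshold stayed within 1.5 times, for example 6 to 8 with VS-4718. Scaling by library totals alone moved the median of all genes from 0.02 to 0.14 with GSK215 and from 0.02 to 0.13 with BSJ-04-0146, and the share of calls that were higher from 50.2% to 68.3% and from 50.7% to 67%; with VS-4718 it went from 51.9% to 62.6%. Under it *Slc7a6* with GSK215 turned from -0.11 to 0.01, as did *Keap1* with GSK215 (-0.11 to 0.01), the falls of *Eif2ak4* with GSK215 and BSJ-04-0146 were no longer called (-0.07 and -0.03), nor were those of *Gsr* (-0.05) and *Slc6a6* (-0.01) with BSJ-04-0146, of *Gss* with GSK215 (-0.09) and of *Slc43a2* with PROTAC FAK degrader 1 (-0.12), nor were *Slc7a1* with PROTAC FAK degrader 1 (-0.07) and *Slc6a9* with VS-4718 (-0.10), while *Slc38a2* with BSJ-04-0146 was gained (0.13). With no filter, *Slc7a3* with GSK215 was no longer called (0.56, adjusted p = 0.0552 in edgeR). For the other plasma membrane transporters, GSK2256098 called 1 gene, and 2 with no filter, with only the 6 libraries of the comparison or with limma on log2(CPM + 4). For the cysteine and glutathione genes, defactinib called 4, and 7 with only its 6 libraries. Leaving out 1 replicate at a time, the other transporters called ranged from 2 to 4 with defactinib, 2 to 5 with VS-4718 and 0 to 1 with GSK2256098. The lysosomal carriers ranged from 1 to 2 with defactinib, 1 to 3 with VS-4718 and 0 to 1 with GSK2256098, and the cysteine and glutathione genes from 3 to 5 with IN10018. The replicate block gave 8 transporters past the threshold with defactinib and 7 with VS-4718, as without it, and among named genes it lost *Eif2ak4* with VS-4718 and *Keap1* with defactinib (adjusted p = 0.0502 and 0.05) and changed no other call. At 16 to 62 counts, *Slc7a3* was limited by depth.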
